A study of Arabidopsis thaliana with 35 samples.

Results

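Seedlings in which the receptor gene ER was induced were compared with seedlings in which the ligand gene EPFL4 was induced, both after 3 h on estradiol, across all genes. The comparison takes every library that the sample labels place in er XVE:ER at 3 h (n = 3, numbered 1, 2 and 4) and in XVE:EPFL4 at 3 h (n = 4), which is 7 of the 35 RNA-seq libraries of the series. The er XVE:ER seedlings were er mutants transformed with XVE:ER, and the XVE:EPFL4 seedlings were wild type transformed with XVE:EPFL4. All were 7 d old when moved to plates with 5 mM estradiol, and the study's methods give a pool of 5 to 6 seedlings per library for the ER induction. XVE is a hormone-gated transcription factor through which estradiol turns a transgene on, and in the ER line it was driven by the 35S promoter, which is active in most tissues. Libraries of the same lines uninduced (called 0 h or before induction here, n = 4 each) and at 8 h (n = 4 each), and of wild type (WT) on the same estradiol plates at 3 h (n = 4), served as references. The study's methods describe mock plates for 3 h. Whether the uninduced libraries had that time on plates is not settled by the sample titles. The lines differ in the er mutation as well as in the transgene, so the effects of the er background, of ER induction and of EPFL4 induction cannot be told apart within the 3 h comparison alone.

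ER (ERECTA) is a leucine-rich repeat receptor kinase that acts with its relatives ERL1 and ERL2 at the cell surface. Secreted cysteine-rich peptides of the EPF and EPFL family bind these receptors, EPFL4 and EPFL6 in stem and vascular growth and EPF1 and EPF2 in the spacing of stomata. In the epidermis the receptor-like protein TMM modulates the response, and a MAP kinase cascade headed by YDA passes the signal to the transcription factors SPCH, MUTE and FAMA, which drive the steps from precursor to guard cell. In the vascular cambium the ER family is studied with the receptor PXY and its peptide ligand TDIF, whose targets include WOX4 and LBD4.

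ER was higher in er XVE:ER and EPFL4 was higher in XVE:EPFL4 at 3 h, in accord with the labels of all 7 libraries. ER (AT2G26330, chromosome 2, 11208080 to 11214662 in TAIR10.1, 27 exons) stood at 357, 267 and 457 CPM (counts scaled to the depth of each library) in er XVE:ER and at 106, 98.4, 101 and 105 CPM in XVE:EPFL4. The groups did not overlap, and the log2 fold change of er XVE:ER over XVE:EPFL4 was 1.81 ± 0.13 (SE; edgeR quasi-likelihood test, adjusted p = 9.1e-06). Before induction the order was the opposite, with 47.9, 44.5, 46.9 and 67.8 CPM in er XVE:ER and 88.4 to 94.0 CPM in XVE:EPFL4, a log2 fold change of -0.81 ± 0.14 (edgeR adjusted p = 0.041). EPFL4 (AT4G14723, chromosome 4, 8439899 to 8440901, 2 exons) stood at 984, 1290, 1180 and 1730 CPM in XVE:EPFL4 at 3 h. The 3 er XVE:ER libraries held 0.552, 0.255 and 0.658 CPM of it, close to the 0.0536 to 0.860 CPM of WT at 3 h. The log2 fold change was -11.32 ± 0.29 (edgeR adjusted p = 6.8e-10). EPFL4 was already at 3.39, 2.69, 1.35 and 2.39 CPM in uninduced XVE:EPFL4, above all 4 uninduced er XVE:ER libraries (0.219 to 0.921 CPM), a difference that missed the threshold at an edgeR adjusted p of 0.10. An exact two-sided permutation test of mean log2 CPM gave 0.0286 for ER and for EPFL4 at 3 h, the smallest p that 3 and 4 libraries allow. Counts per gene do not separate the ER transgene from the endogenous ER locus. The plot of the induced genes by library shows both steps.

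**Figure D1:**
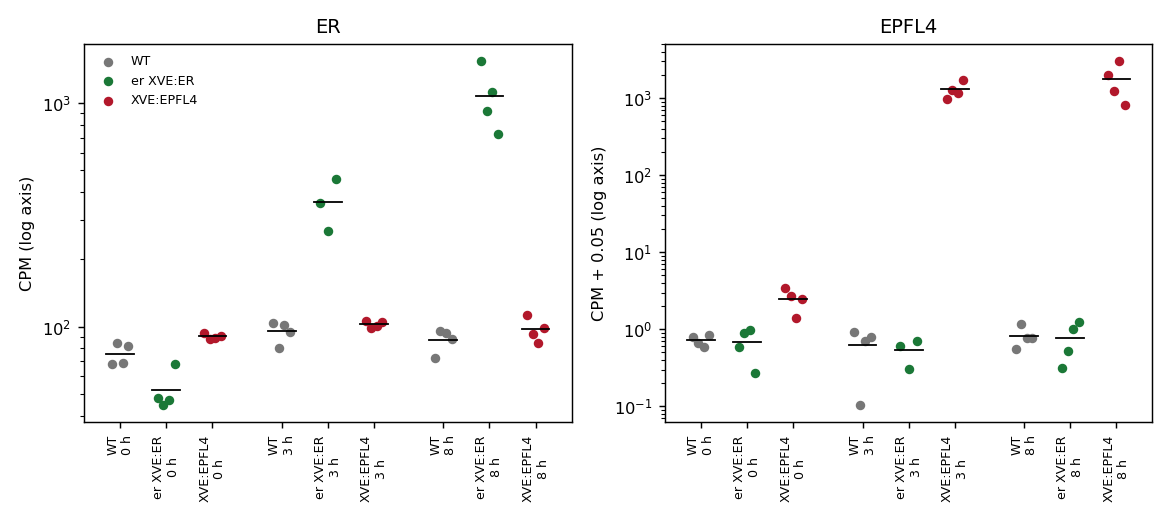
CPM of ER (left) and EPFL4 (right, plotted as CPM + 0.05) on log axes in every library of WT, er XVE:ER and XVE:EPFL4 at 0, 3 and 8 h; points are libraries and bars are group means. At 3 h ER is highest in er XVE:ER (267 to 457 CPM, against 98.4 to 106 CPM in XVE:EPFL4) and EPFL4 is highest in XVE:EPFL4 (984 to 1730 CPM).

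Across all genes, 3392 of 20190 genes tested (16.8%) were called between the lines at 3 h at an adjusted p under 0.05 (edgeR quasi-likelihood test, Benjamini-Hochberg adjustment). Of these, 1823 (9.03% of those tested) were higher and 1569 (7.77%) lower in er XVE:ER. Most differences were small, with a median absolute log2 fold change of 0.335 and 2739 called genes under 1.5-fold, whereas 104 were higher and 99 lower by more than 2-fold. Before induction the same lines differed in 85 of 19830 genes (0.429%), 21 higher (0.106%) and 64 lower (0.323%), and 1953 had an unadjusted p under 0.05. At 8 h they differed in 9 of 19921 genes (0.0452%), 5 higher (0.0251%) and 4 lower (0.0201%), and 2119 had an unadjusted p under 0.05. DESeq2 called 409 genes before induction and 397 at 8 h.

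The spread between libraries was not equal over the groups. The median SD of log2 CPM between libraries was 0.118 in er XVE:ER and 0.109 in XVE:EPFL4 at 3 h, against 0.163 to 0.27 in the other 7 groups. Replicate 4 of uninduced er XVE:ER and replicate 4 of WT at 3 h stood apart from their groups. Without these libraries the median SD fell from 0.254 to 0.115 and from 0.214 to 0.128, and without the first of them 909 genes in place of 85 were called before induction. The 85 became 13 to 43 without uninduced er XVE:ER replicate 2 or 3 or any one uninduced XVE:EPFL4 library, and the 9 at 8 h became 224 without er XVE:ER replicate 1 and 14 without XVE:EPFL4 replicate 1. When the spread was estimated over all 35 libraries together, only 44 genes were called at 3 h (34 higher, 10 lower), all of them among the 3392 with the same sign, and 1900 had an unadjusted p under 0.05. Without er XVE:ER replicate 2 the 7-library test called 1825. A call at 3 h in the text below rests on the 7 libraries, and calls that also passed with the spread of all 35 are named as such.

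Of the 44 genes called with the spread of all 35 libraries, 30 had a WT level at 3 h nearer to XVE:EPFL4 than to er XVE:ER, 40 had the same sign before induction and 15 were called there. The sign was the same before induction for 54.5% of the 19690 genes tested at both times. Among the genes called in the 7 libraries it was the same for 1909 of 3361 (56.8%). Of all genes tested before induction, 0.429% were called. The genes named from this set were chosen after their values were seen, unless a fixed list holds them. Besides EPFL4 and ER they included IAA9, an Aux/IAA repressor, at 75.5 to 115 CPM in er XVE:ER, 206 to 219 in XVE:EPFL4 and 197 to 220 in WT. SWEET1, a sugar transporter, stood at 46.6 to 51.4, 12.4 to 15.6 and 13.4 to 26.4 CPM in the same order. QQS, an orphan gene of starch metabolism, stood at 4.79 to 8.32, 0.592 to 1.25 and 1.86 to 3.17 CPM. IAA9, QQS, TMM, AT1G75945, AT2G44970, AT3G05945 and AT5G39920 were called with the same sign before induction, at 3 h and at 8 h. ER was also called at all 3 times, with its sign turned by induction. The scatter of the log2 fold changes sets the 3 h values of the 44 genes beside those before induction.

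**Figure D2:**
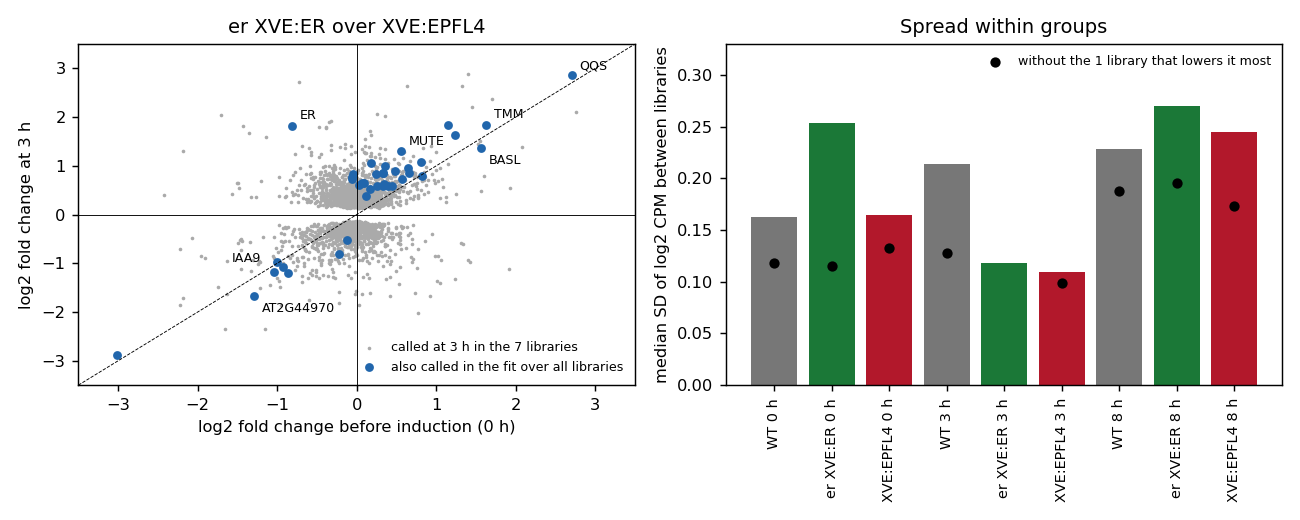
Left, log2 fold change of er XVE:ER over XVE:EPFL4 at 3 h against that before induction for genes called at 3 h (grey) and for those also called with the spread of all 35 libraries (blue); the dashed line marks equal values, and genes beyond 3.5 on either axis lie outside the frame. Right, median SD of log2 CPM between libraries in each group, with black points for the value without the library that lowers it most; the compared groups at 3 h have the lowest bars, 0.118 and 0.109.

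The receptor family and its epidermal partner were higher in er XVE:ER beyond ER itself. Of 8 genes for ER family receptors and coreceptors, 5 were higher and 1 lower at 3 h, against 9.03% and 7.77% of all genes tested. The 5 were ER, ERL1, ERL2, TMM and SERK2. ER is the gene induced in this line, so its place among them was set by the construct. TMM stood at 54.4, 54.7 and 53.5 CPM in er XVE:ER and 13.4, 14.5, 16.2 and 16.8 CPM in XVE:EPFL4, with WT replicates 2, 3 and 4 at 16.2, 16.0 and 14.1 CPM and WT replicate 1 slightly above them. Its log2 fold change was 1.84 ± 0.07 at 3 h (edgeR adjusted p = 8.8e-08), 1.63 ± 0.13 before induction (0.0016) and 1.45 ± 0.15 at 8 h (0.0047). ERL1 stood at 11.8, 12.8 and 12.4 CPM against 5.48, 6.77, 6.60 and 6.67 CPM (log2 fold change 0.96 ± 0.10, edgeR adjusted p = 0.00015). ERL2 stood at 33.7, 28.9 and 29.9 CPM against 21.3, 21.8, 20.1 and 21.4 CPM (0.55 ± 0.07, adjusted p = 0.00043). The groups of TMM, ERL1 and ERL2 did not overlap, and TMM and ERL1 were also called with the spread of all 35 libraries. ERL1 and ERL2 were not called before induction or at 8 h, where ERL1 had 0.64 (edgeR adjusted p = 0.14) and 0.48 (0.49). In the difference of responses ER was the only gene called of the 8, against 0.6% of all genes. The coreceptor gene SERK2 was higher by a log2 fold change of 0.19 (edgeR adjusted p = 0.028) and SERK4 was lower, at -0.39 (0.021). These calls were lost under 9 and 5 of 13 alternatives, both of them with the spread of all 35 libraries. SERK1 and BAK1 were not called. ERL1, SERK2 and, below, POLAR, HDG2 and MPK3 overlap another annotated gene, so their counts may hold reads of it. Among the EPF and EPFL peptides, 1 of 9 tested was higher (EPF2) and 1 lower (EPFL4). EPF2, secreted by early stomatal precursors, stood at 7.41, 6.13 and 5.57 CPM against 2.01, 2.67, 2.07 and 3.03 CPM (log2 fold change 1.39 ± 0.18, edgeR adjusted p = 0.00044), and was called before induction too (2.08 ± 0.30, adjusted p = 0.026). EPFL5 and EPFL6, the close relatives of EPFL4, were not called, with log2 fold changes of -0.10 ± 0.29 and 0.41 ± 0.21.

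Genes of the stomatal lineage were higher in er XVE:ER as a group. Of 12 listed genes, 9 were higher and 0 lower at 3 h, against 9.03% and 7.77% of all genes tested, with a median log2 fold change of 0.59 over the list against 0.0015 over all genes, and 5 of them (SCRM2, ICE1, POLAR, MUTE and BASL) were also called with the spread of all 35 libraries. SPCH, which starts the lineage, stood at 17.8, 15.1 and 17.2 CPM in er XVE:ER and 6.19, 8.06, 6.56 and 8.39 CPM in XVE:EPFL4 (log2 fold change 1.20 ± 0.12, edgeR adjusted p = 7.6e-05). MUTE, which ends the divisions of the precursor, stood at 2.58, 2.35 and 3.12 CPM against 0.920, 1.21, 1.27 and 0.910 CPM (1.31 ± 0.23, adjusted p = 0.0022). The groups did not overlap for either gene. FAMA, which acts at the last division into guard cells, had a log2 fold change of 0.60 ± 0.10 (edgeR adjusted p = 0.0019). ICE1 and SCRM2, the partners of all these factors, each had 0.59, with SE 0.05 and 0.06. The polarity genes BASL and POLAR had 1.37 ± 0.18 and 1.08 ± 0.17, the homeodomain gene HDG2 had 0.34 and SDD1, for a secreted protease, had 0.47. FLP, MYB88 and KAT1 were not called.

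The stomatal genes in WT at 3 h lay nearer to XVE:EPFL4 than to er XVE:ER for all 9 called members. This was unlike the 3392 called genes as a whole, of which 2512 (74.1%) had a mean WT level nearer to er XVE:ER, or 81.7% without WT replicate 4. For SPCH the WT libraries held 7.04, 6.22, 5.51 and 4.41 CPM, and for MUTE 0.968, 0.751, 1.28 and 0.904 CPM, all below the er XVE:ER libraries. Of the list, BASL (log2 fold change 1.57), POLAR (0.81) and FAMA (0.70), were called as higher in er XVE:ER before induction, where the median of the list was 0.50, and none of the 12 was called at 8 h, where the median was 0.35. SPCH before induction stood at 7.49, 8.55, 8.19 and 16.1 CPM in er XVE:ER and 8.50, 4.88, 4.64 and 6.72 CPM in XVE:EPFL4, groups that overlapped. None of the 12 was called for a difference in the response to induction, and the median of that difference was 0.21.

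**Figure D3:**
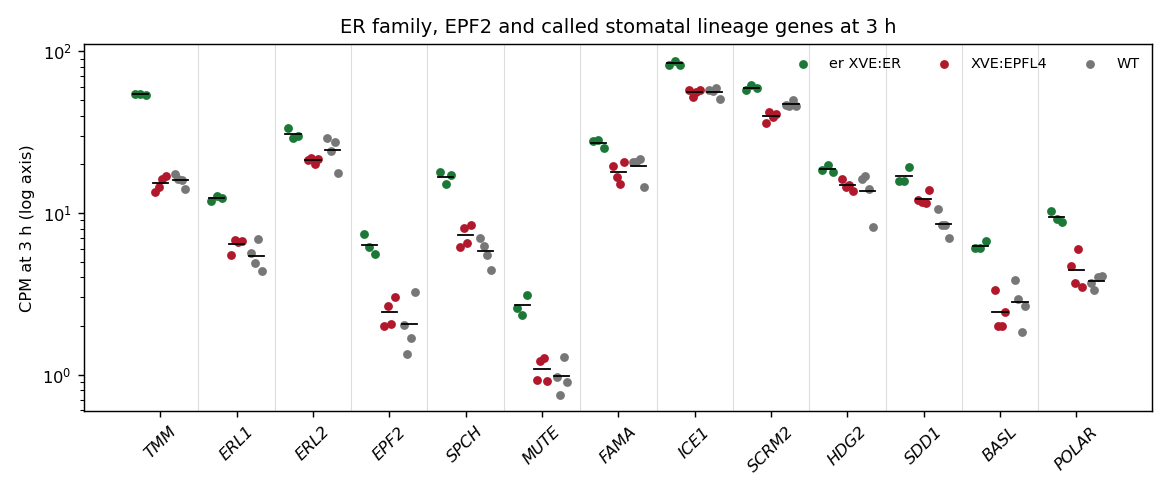
CPM at 3 h (log axis) of TMM, ERL1, ERL2, EPF2 and the 9 called stomatal lineage genes in er XVE:ER, XVE:EPFL4 and WT; points are libraries and bars are group means. In each of the 13 genes the er XVE:ER libraries lie above all XVE:EPFL4 libraries.

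Of 5 guard cell markers, 3 were higher in er XVE:ER (9.03% of all genes were) and 0 lower. They were MYB60, TGG1 and FAMA, which the stomatal list also holds, and none of the 5 was called in the difference of responses. The summed level of the list was 2450 to 2580 CPM there, 1770 to 1920 CPM in XVE:EPFL4 and 1310 to 2290 CPM in WT at 3 h, with no marker at 0. In pooled seedlings, more cells of a type and more RNA per cell cannot be told apart. MYB60, a guard cell transcription factor, stood at 14.4, 13.2 and 14.0 CPM against 7.48, 9.57, 8.25 and 8.44 CPM (log2 fold change 0.72, edgeR adjusted p = 0.00064) and was also called with the spread of all 35 libraries. Of 6 shoot markers, 3 (LHCB2.1, LHCA1 and PSBO2) were higher, against 9.03% of all genes, by log2 fold changes of 0.18 to 0.20, and LHCA1 lost its call under 6 of 13 alternatives. The 6 shoot markers had summed levels of 38300 to 41100 CPM against 37200 to 39200 CPM. None of 8 root markers was called, and their summed levels were 250 to 327 CPM against 267 to 319 CPM. The part of organ shares in the results was not tested.

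The YDA cascade and the TDIF-PXY genes differed in few members. MPK3, the only gene called of 11 tested in the cascade (9.09%, below the 16.8% of all genes), stood at 55.3, 73.2 and 95.3 CPM against 125, 107, 104 and 135 CPM (log2 fold change -0.65, edgeR adjusted p = 0.010). None of 5 tested TDIF-PXY ligand and receptor genes and none of the 8 targets WOX4, WOX14, LBD4, TMO6, ANT, AIL5, AIL6 and AIL7 was called. WOX4, a cambium homeobox gene, stood at 6.12, 7.96 and 7.15 CPM against 8.66, 5.77, 7.11 and 6.57 CPM (0.01 ± 0.15). LBD4 stood at 10.5, 9.34 and 7.28 CPM against 9.87, 8.48, 7.65 and 8.24 CPM (0.08 ± 0.14). The remaining log2 fold changes were -0.26 ± 0.34 for WOX14, 0.21 ± 0.09 for TMO6, 0.00 ± 0.09 for ANT, 0.24 ± 0.15 for AIL5, 0.23 ± 0.16 for AIL6 and -0.16 ± 0.25 for AIL7. The groups overlapped in all 8. In the difference of responses LBD4 had the largest value of these targets, 1.01, at an adjusted p of 0.098 (edgeR).

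Xylem, phloem and cell cycle genes showed small differences. Of 17 xylem and secondary wall genes, 4 (23.5%) were higher and 0 lower, against 9.03% and 7.77% of all genes tested (16.8% in either direction). They were the cellulose synthase genes IRX1 (0.37) and IRX3 (0.33), CAGE1 (0.45) and the peptidase gene XCP2 (0.20), all as log2 fold changes. IRX1, IRX3 and CAGE1 lost their calls under 6, 5 and 4 of 13 alternatives. WT lay nearer to XVE:EPFL4 for 3 of these and nearer to er XVE:ER for CAGE1. SUC2, the sucrose loader of phloem companion cells (0.26), and SMXL5 (0.28) were the 2 phloem genes called of 6 (33.3%). The D-type cyclins CYCD3;1 (0.30) and CYCD3;2 (0.24) were higher, whereas the mitotic genes CDKB1;2 (-0.48) and KNOLLE (-0.31) were lower, which makes 4 of 11 cell cycle genes (36.4%). CDKB1;2 lost its call under 11 and KNOLLE under 6 of 13 alternatives.

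Of 11 circadian clock genes, 5 were higher in er XVE:ER and 0 lower, against 9.03% and 7.77% of all genes tested. CCA1, a MYB repressor that peaks near dawn, stood at 146, 136 and 125 CPM against 81.2, 84.0, 85.0 and 75.1 CPM (log2 fold change 0.74 ± 0.06, edgeR adjusted p = 3.1e-05). LHY, its closest relative, stood at 37.2, 34.9 and 29.0 CPM against 15.3 to 21.4 CPM in the 4 XVE:EPFL4 libraries (0.85 ± 0.11, adjusted p = 0.00051). RVE8 had a log2 fold change of 0.73, and the pseudo-response regulator genes PRR9 and PRR5 had 0.69 and 0.34, the call of PRR5 being lost under 10 of 13 alternatives, DESeq2 among them. TOC1, GI, PRR7, ELF3, ELF4 and LUX were not called. The 4 WT libraries at 3 h held 143, 177, 180 and 43.0 CPM of CCA1, so that WT alone spanned the levels of both lines. For 4 of the 5 called clock genes, and for 1197 of all 3392 called genes (35.3%), the WT range at 3 h held both line means, and without WT replicate 4 this was so for 0 of 5 and for 102 (3.01%). Over all 20190 genes tested the WT range held both line means in 10792 (53.5%), or in 5266 (26.1%) without WT replicate 4. The WT range held both line means in none of the 9 called stomatal genes. Uninduced er XVE:ER replicate 4 also stood apart in CCA1, at 59.5 CPM against 269 to 297 CPM in the other 3 libraries. None of the clock genes was called before induction, at 8 h, in the difference of responses or with the spread of all 35 libraries.

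Of 11 iron genes, 5 were higher in er XVE:ER and 1 lower, against 9.03% and 7.77% of all genes tested, and the higher genes varied between the er XVE:ER libraries. The lower gene was the ferritin gene FER3 (log2 fold change -0.40), whose groups overlapped and whose call was lost under 8 of 13 alternatives. BHLH38, BHLH39, BHLH100 and BHLH101 encode the group Ib bHLH factors that rise when iron is short. BHLH100 stood at 17.9, 10.2 and 1.76 CPM in er XVE:ER replicates 1, 2 and 4 and at 0.0418, 0.251, 0 and 0.101 CPM in XVE:EPFL4 (log2 fold change 6.58 ± 0.86, edgeR adjusted p = 0.00051). BHLH101 stood at 13.6, 7.61 and 3.60 CPM against 0.418, 1.34, 0.804 and 0.202 CPM (3.54 ± 0.48, adjusted p = 0.00064). BHLH38 had a log2 fold change of 2.64 and BHLH39 of 0.82, and BTS, an E3 ligase gene that restrains the iron response, had 0.96. In all 5 higher genes replicate 1 held the highest and replicate 4 the lowest er XVE:ER value, and the groups did not overlap. WT libraries at 3 h held 3.33, 8.15, 6.18 and 0.0565 CPM of BHLH100, again with replicate 4 lowest. FIT, the bHLH regulator of iron uptake in roots, and IRT1 and FRO2, the transporter and reductase genes of that uptake, were not called.

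**Figure D4:**
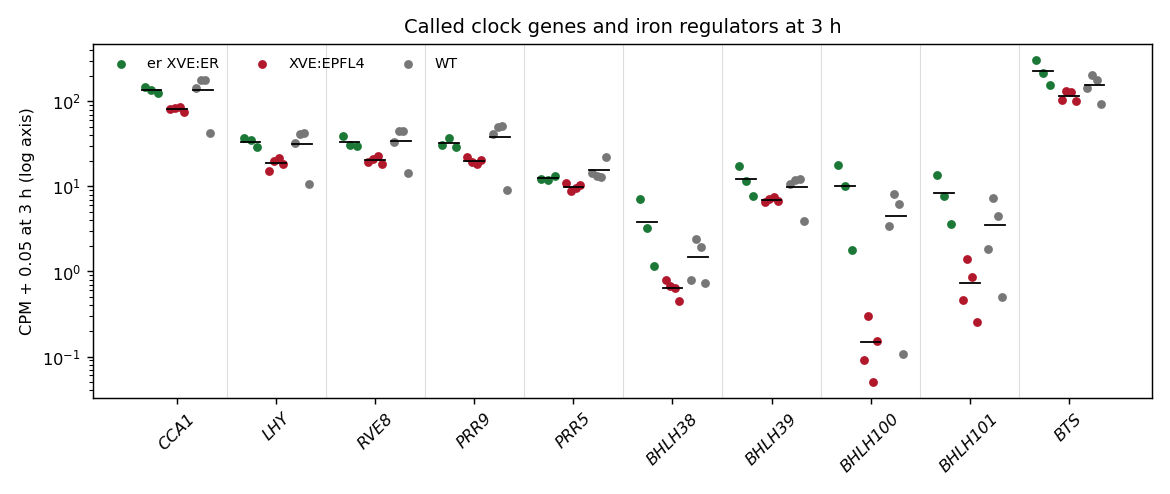
CPM + 0.05 at 3 h (log axis) of the 5 called clock genes and 5 iron regulators in er XVE:ER, XVE:EPFL4 and WT; points are libraries, in the order of their replicate numbers from left to right, and bars are group means. WT replicate 4, the rightmost grey point, lies at 43.0 CPM for CCA1 and at 0.0565 CPM (before the added 0.05) for BHLH100.

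The upstream bases of 4 of these genes are shown because CCA1, LHY, BHLH38 and BHLH100, which were all higher in er XVE:ER, share the G-box letters CACGTG there. Each sequence holds the 250 bases before the annotated start in the reference genome (RefSeq, TAIR10.1), 5′ to 3′ on the strand of the gene, with the G-box in capitals.
CCA1, chr2:19245341-19245590, plus strand: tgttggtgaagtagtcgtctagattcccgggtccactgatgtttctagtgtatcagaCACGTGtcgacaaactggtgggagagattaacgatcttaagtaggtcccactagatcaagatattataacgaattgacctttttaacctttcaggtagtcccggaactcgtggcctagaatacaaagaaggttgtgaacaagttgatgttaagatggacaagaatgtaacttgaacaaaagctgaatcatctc
LHY, chr1:37872-38121, minus strand: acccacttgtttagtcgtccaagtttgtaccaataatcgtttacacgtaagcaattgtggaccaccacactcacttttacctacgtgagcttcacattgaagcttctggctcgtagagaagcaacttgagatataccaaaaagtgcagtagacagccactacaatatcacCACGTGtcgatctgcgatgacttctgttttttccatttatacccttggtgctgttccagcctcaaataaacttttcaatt
BHLH38, chr3:21085246-21085495, minus strand: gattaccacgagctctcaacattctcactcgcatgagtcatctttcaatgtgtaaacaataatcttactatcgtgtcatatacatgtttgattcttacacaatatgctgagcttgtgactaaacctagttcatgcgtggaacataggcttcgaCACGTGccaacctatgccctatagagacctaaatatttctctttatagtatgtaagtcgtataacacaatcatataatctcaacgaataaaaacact
BHLH100, chr2:17199455-17199704, minus strand: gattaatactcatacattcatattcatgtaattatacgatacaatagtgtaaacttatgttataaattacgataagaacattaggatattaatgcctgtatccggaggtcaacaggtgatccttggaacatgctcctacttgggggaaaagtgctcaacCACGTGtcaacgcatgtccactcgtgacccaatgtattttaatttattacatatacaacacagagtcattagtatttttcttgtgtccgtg
The G-box lay 193, 80, 97 and 91 bases before the start, counted from its first base. Of the upstream stretches of all genes tested, 7.32% held CACGTG, a palindrome that reads alike on both strands, against 10.3% of genes called higher and 4.92% of genes called lower. Of the other called clock and iron genes, PRR9, BTS and FER3 held it, and RVE8, PRR5, BHLH39 and BHLH101 did not. Both strands were also searched for the evening element AAAATATCT (2.46% of all, 2.14% of higher, 2.81% of lower) and for AAAAATCT (6.72%, 7.13% and 6.19%). A further search was for GGTCAA, a single form of the W-box (12.2%, 10.9% and 13.9%). Other forms of the W-box were not searched. Matches of different motifs overlapped in at most 3 of 20103 stretches for any pair of motifs. These motifs were chosen with the results known, and the shares are descriptions without a test.

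Touch and early stress genes were called in both directions, and heat shock genes as higher only. Of 10 touch and early stress genes tested, 3 were higher and 4 lower, against 9.03% and 7.77% of all genes tested. CBF2, a cold-response factor, stood at 5.71, 4.95 and 5.71 CPM against 1.17, 1.59, 1.02 and 1.57 CPM (log2 fold change 2.04 ± 0.19, edgeR adjusted p = 6.1e-05), and its neighbour CBF3 had 1.81. WT held 17.8, 6.27, 3.57 and 0.678 CPM of CBF2. The calmodulin-like gene TCH2 had 0.38. The lower genes were TCH3 (-0.83), TCH4 (-0.59), for a wall-modifying enzyme, WRKY33 (-0.73) and ERF6 (-0.89), and the groups overlapped in WRKY33 and ERF6. TCH3 lost its call under 6 and WRKY33 under 7 of 13 alternatives. HSP70 (0.80), HSP90.1 (0.65) and HSP101 (0.36), 3 of 6 tested heat shock genes, were higher (9.03% of all genes were), with WT nearer to XVE:EPFL4 in all 3. The median log2 fold change of the touch list was -1.05 before induction, -0.19 at 3 h and 0.55 at 8 h. For the heat shock list it was 0.83, 0.47 and -0.54 in the same order. PR2, a defence glucanase gene, was called lower at -5.44 ± 1.56 (edgeR adjusted p = 0.033), but its values of 0, 0.0511 and 0.307 CPM against 16.8, 0.794, 4.69 and 0.0505 CPM overlapped. It was the only gene called of 7 tested for salicylate defence.

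Apart from the cytokinin response list, the hormone and nitrate lists held few calls. The type-A response regulator genes ARR8 (0.46), ARR9 (0.34) and ARR16 (0.96), which cytokinin induces, were higher, 3 of 9 tested (33.3%). Of all genes tested, 9.03% were higher. Single members were called in the lists for auxin response (IAA17, 0.27, of 12), gibberellin (RGA, 0.14, of 8), jasmonate (OPR3, -0.27, of 9 tested) and nitrate (NLP7, 0.22, of 7 tested), and none of 8 brassinosteroid genes. RGA lost its call under 11 and OPR3 under 5 of 13 alternatives. The shares of these lists, 8.33 to 14.3% where a single member was called, lie near or below the 16.8% of all genes tested.

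The groups did not overlap in 5515 of the 20190 genes tested, and in 3224 (95%) of the 3392 called. Of these 3224 called genes, the 10 furthest apart in each direction were mostly low in 1 line. AT5G39920 (chromosome 5, annotated as a pre-mRNA cleavage complex II protein) stood at 21.2, 13.9 and 16.1 CPM in er XVE:ER and had no count in the 4 XVE:EPFL4 or 4 WT libraries at 3 h, which makes it at least 519-fold higher over a floor of 3 counts for the XVE:EPFL4 group. AT3G05945 (chromosome 3) had the reverse pattern, with 0, 0 and 0.0878 CPM in er XVE:ER, 9.58, 9.40, 9.98 and 11.1 CPM in XVE:EPFL4 and 8.71 to 17.5 CPM in WT. The other 9 higher genes were AT1G75945, BHLH100, AT5G33390, AT1G13609, AT3G01345, BHLH101, AT2G14247, AT5G60130 and AT3G09450, with log2 fold changes from 7.05 down to 2.88. AT1G13609, for a defensin-like peptide, stood at 78.5, 34.3 and 8.82 CPM against 0.878, 3.89, 1.14 and 0.455 CPM, with replicate 1 highest and replicate 4 lowest as in BHLH100. Next to EPFL4 and AT3G05945, the lower genes were AT2G01422, AT5G10760, ANK, AT2G08735, RL1, AT1G56060, WAK1 and AT2G17740, with -5.00 to -2.31. RL1 lost its call under 6 and AT2G17740 under 5 of 13 alternatives, and AT1G56060 under 3 of 10. With the spread of all 35 libraries, only AT5G39920, AT1G75945 and AT5G33390 of the higher genes and EPFL4, AT3G05945 and AT2G08735 of the lower genes were called. WAK1, a wall-associated kinase gene, stood at 2.62, 3.52 and 2.28 CPM against 22.3, 13.7, 16.7 and 4.20 CPM.

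Genes called at 3 h and not before induction were ranked by p, which favours genes of low spread. Of smallest p and higher in er XVE:ER were AT2G21210 (1.37 ± 0.08), of the SAUR-like auxin family, AT5G48570 (1.06), a peptidyl-prolyl isomerase gene, STH (0.98 ± 0.06), a B-box factor gene, FRO7 (1.01 ± 0.07), a ferric reductase gene of chloroplasts, and CDF3 (0.80 ± 0.05), a cycling DOF factor gene. CDF3 stood at 86.4, 89.3 and 84.2 CPM against 47.1, 48.8, 53.4 and 50.0 CPM, with WT at 95.4, 96.7, 102 and 28.5 CPM. Lower were EPFL4, EXO (-0.86 ± 0.06) and its relative EXL5 (-1.17 ± 0.10), both linked to cell expansion, PLA2A (-1.86 ± 0.16), a lipid hydrolase gene, and AGP17 (-0.83 ± 0.07), an arabinogalactan protein gene. EXO stood at 70.7, 68.4 and 70.3 CPM against 125, 113, 136 and 134 CPM, with WT at 62.6, 44.7, 43.2 and 178 CPM. In CDF3 and EXO alike, WT replicates 1 to 3 lay on the er XVE:ER side and WT replicate 4 beyond XVE:EPFL4. Of the genes named in this paragraph only EPFL4 was called with the spread of all 35 libraries.

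The difference of the responses, (3 h minus uninduced in er XVE:ER) minus (3 h minus uninduced in XVE:EPFL4), was called for 123 of 20512 genes (0.6%), 106 of them positive (0.517%) and 17 negative (0.0829%), and 2611 had an unadjusted p under 0.05. The 123 became 1026 without uninduced er XVE:ER replicate 4, 206 without its replicate 1, 49 to 75 without any one library of the lines at 3 h, 80 without uninduced er XVE:ER replicate 2 and 62 without uninduced XVE:EPFL4 replicate 1. With the spread of all 35 libraries 6 remained. In the 106 positive genes the median log2 CPM change was 0.651 in er XVE:ER, -0.495 in XVE:EPFL4 and 0.337 in WT. In the 17 negative genes the medians were -0.246, 0.96 and -0.143. These genes were chosen by this difference in the same libraries, so the order of the lines in these medians was set by the choice. WT took no part in it. Of the 123 genes, 32 were also called before induction, all 32 with the opposite sign.

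Single genes showed how the uninduced levels entered this difference, since both comparisons use the same libraries at 3 h. ER had a difference of responses of 2.61 ± 0.21 (edgeR adjusted p = 1.4e-05) and EPFL4 of -9.41 ± 0.66 (5.3e-06). PUB29, a U-box ubiquitin ligase gene, stood at 9.89, 8.29, 8.19 and 9.41 CPM in uninduced er XVE:ER and 24.1, 22.1, 21.2 and 22.7 CPM in uninduced XVE:EPFL4. At 3 h it stood at 15.0, 14.5 and 15.8 CPM against 11.7, 11.9, 12.5 and 11.2 CPM, so the order turned, and the difference of responses was 1.68 ± 0.12 (adjusted p = 5.3e-06). NUDT21, a nudix hydrolase gene, turned likewise, from 14.4 to 21.2 CPM against 42.4 to 56.3 CPM before induction to 38.6 to 46.8 CPM against 25.1 to 29.9 CPM at 3 h (2.14 ± 0.17, adjusted p = 1.3e-05). AT2G21210 (1.95) and AT1G72910 (2.81), for a TIR-domain protein, completed the 5 of smallest p. The negative genes were EPFL4, AT3G19680 (-2.41), ABR1 (-3.05) and RAP2.10 (-1.11), both of the AP2/ERF family, and CYP81D11 (-1.06), a cytochrome P450 gene. From the lists, TCH2 (1.26), BHLH101 (3.55), the early auxin gene IAA1 (0.88), ARR4 (0.73) and the gibberellin synthesis gene GA3OX1 (0.89) were also called in this difference, and IAA1, ARR4 and GA3OX1 were not called between the lines at 3 h. Of 21 alternatives, ARR4 lost this call under 12, GA3OX1 and BHLH101 under 10 each, IAA1 under 6 and TCH2 under 3.

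Called genes lay on all 5 nuclear chromosomes. Of the tested genes, 742 of 4709 (15.8%) were called on chromosome 5 and 881 of 5308 (16.6%) on chromosome 1. These shares lay below the 16.8% of all genes tested. Chromosomes 2, 3 and 4 lay above it, with 533 of 3027, 699 of 3979 and 534 of 3080 genes called. In the organelle genomes 3 of 87 (3.45%) were called. Within chromosome 2, 139 of 710 genes (19.6%) that start within 2 Mb of the start of ER were called. Whether this share differs from that of the whole chromosome was not tested. Total counts were 19921536 to 22979499 in er XVE:ER and 19556475 to 23744384 in XVE:EPFL4 at 3 h. Correlations of log2 CPM were 0.9861 to 0.9911 within the groups and 0.9783 to 0.9837 between them, and every pair of replicates differed by more than counting noise (chi-square per degree of freedom 3.474 to 11.08).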

How the data were processed

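The data are RNA-seq read counts per gene from pools of whole Arabidopsis seedlings. The authors mapped reads to TAIR10 with STAR 2.7.11a and deposited unnormalized counts per gene for 32833 genes, 1 table per library. Strand setting, trimming and duplicate handling are not given in the sources used here, so reads of overlapping genes may be shared. Symbols and coordinates come from TAIR10.1, which matched 32548 IDs. Groups were taken from the sample labels, and the study's methods call the replicates biological repeats.

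Counts were fitted in R 4.3.3 with edgeR 4.0.16 (filterByExpr with minimum count 10 and minimum total 15, TMM, glmQLFit, glmQLFTest) on the libraries of each comparison, and p-values were adjusted by Benjamini-Hochberg across the tested genes (threshold 0.05). Each SE was obtained as |log2 fold change| over the root of the F statistic. CPM was scaled with TMM factors from all 35 libraries together. A prior count of 2 was used for log2 CPM. The fits were tested on simulated data for the comparison between the lines at 3 h and for the difference of responses. DESeq2 made more false calls than edgeR in both. Whether this holds before induction or at 8 h was not tested. The alternatives were DESeq2 1.42.0, its size factors in edgeR, no filter, all 35 libraries in 1 fit, a replicate block and leaving out libraries. WT values without 1 library were added after the data were seen.

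The comparison and the gene lists were chosen with earlier results of these data known. Named were ER and EPFL4, called list members, the 10 called genes without overlap that were furthest apart in each direction, and the 5 of smallest p in each direction in the difference of responses and among genes not called before induction. No sample was excluded. Intervals from counts would cover counting error only and are not given.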

Additional observations from a re-analysis of the deposited data

Results flagged for a closer look

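Changes from uninduced to 3 h that differed between er XVE:ER and XVE:EPFL4 (edgeR interaction test, adjusted p under 0.05) were found in 18 named genes, given here as the log2 change in er XVE:ER minus that in XVE:EPFL4. Positive were ER (2.61), PUB29 (1.68), NUDT21 (2.14), AT2G21210 (1.95), AT1G72910 (2.81), AT1G13609 (6.15), BHLH101 (3.55), TCH2 (1.26), CDF3 (0.94), GA3OX1 (0.89), IAA1 (0.88) and ARR4 (0.73). Negative were EPFL4 (-9.41), ABR1 (-3.05), AT3G19680 (-2.41), EXO (-1.19), RAP2.10 (-1.11) and CYP81D11 (-1.06). Of 21 alternatives, EXO lost its call under 14, ARR4 under 12, and GA3OX1 and BHLH101 under 10 each. AT1G13609 lost it under 9, and IAA1 and CYP81D11 under 6 each. With all 35 libraries in 1 fit, only ER, EPFL4 and PUB29 of these genes kept the call.

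Of 104 named genes, 5 had an XVE:EPFL4 library at 3 h far from the other 3 by Dixon's ratio, about as many as chance gives at 1 in 20. ERL1 was low in replicate 1 (5.48 CPM against 6.60 to 6.77), TGG1 was low in replicate 4 (1710 against 1850 to 1870) and CDKB1;2 was high in replicate 4 (5.31 against 4.39 to 4.53). AT1G75945 (0.0836 CPM, replicate 1) and AT5G33390 (0.0418 CPM, replicate 2) each had counts in a single library and 0 in the others.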

How the results depend on the processing

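The 3392 calls at 3 h became 44 with all 35 libraries in 1 fit, and ranged from 1825 (without er XVE:ER replicate 2) to 3329 when libraries were left out. Of the other calls, the 85 before induction became 409 with DESeq2 and 142 with all libraries in 1 fit, and ranged from 13 to 909 when libraries were left out (909 without er XVE:ER replicate 4, 877 without number 4 in both lines). The 9 at 8 h became 397 with DESeq2 and 150 with all libraries in 1 fit, and ranged from 7 to 224 (224 without er XVE:ER replicate 1). The 123 differences of responses became 446 with DESeq2 and 6 with all libraries in 1 fit, and ranged from 49 to 1026 (1026 without uninduced er XVE:ER replicate 4). The cause was not tested. DESeq2 kept 3059 of the 3392 with their sign. The share of calls at 3 h that were higher was 53.7%, and 77.3% with all libraries in 1 fit.

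The replicate numbers were not taken to pair the lines, because the deviations of same-numbered libraries at 3 h correlated at 0.0163, -0.0849 and 0.114. With the number as a replicate block 2936 genes were called at 3 h, 20 before induction, 10 at 8 h and 89 in the difference of responses.

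Some uncalled genes changed sign when libraries were left out: WOX4 ranged from -0.08 to 0.13, ANT from -0.06 to 0.08, LBD4 from -0.04 to 0.22, AIL6 from -0.02 to 0.38, WOX14 from -0.48 to 0.03 and EPFL5 from -0.24 to 0.05. No called gene named at 3 h changed sign under the alternatives tried, and of the single-gene results at 3 h over all alternatives 1115 kept their side of the threshold, 196 lost the call and 11 changed sign. Depth limits genes near or under 1 CPM, such as EPFL5 and AT5G60130.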

Other observations

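The 44 genes called at 3 h with the spread of all 35 libraries included 4 genes not described above, which were named after their values were seen. AAP4, an amino acid permease gene, stood at 99.2 to 106 CPM in er XVE:ER, 54.2 to 61.6 CPM in XVE:EPFL4 and 49.5 to 91.7 CPM in WT at 3 h. ABCA4 stood at 17.3 to 20.5, 9.90 to 10.9 and 11.3 to 15.4 CPM in the same order. ABI1, a phosphatase that restrains abscisic acid signalling, stood at 79.9 to 96.6, 45.4 to 53.1 and 50.1 to 88.0 CPM. HAT9, a homeodomain-leucine zipper gene, stood at 12.2 to 14.0, 5.77 to 6.85 and 7.68 to 8.79 CPM. In none of AAP4, ABCA4, ABI1 and HAT9 did er XVE:ER and XVE:EPFL4 overlap at 3 h, and none was called before induction.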
